A study of Mus musculus with 25 samples.

Results

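The adult globin genes Hba-a1, Hba-a2, Hbb-bs and Hbb-bt and the heme synthesis gene Alas2 were followed across 25 mouse liver libraries as a readout of red cell message in the tissue. The members were the loci whose gene name, split at commas, was one of these 5 symbols. All 5 were found as single loci in both cohorts, out of 46499 loci at 20 weeks and 46052 loci at 39 weeks. None was at 0 in any library, and all 5 passed the filter of a cohort mean of at least 1 FPKM (a fragment count scaled by transcript length and library size), as did 10963 loci at 20 weeks and 11441 loci at 39 weeks in all.

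Haemoglobin is built from alpha chains, encoded by Hba-a1 and Hba-a2, and beta chains, encoded in C57BL/6 mice by Hbb-bs and Hbb-bt, each chain holding a heme group. Young red cells still carry globin message after they have lost the nucleus, so a tissue that holds blood yields globin reads even where its own cells make none. Alas2 encodes the erythroid form of 5-aminolevulinate synthase, the enzyme that starts heme synthesis. Its housekeeping counterpart Alas1 serves the liver's own heme demand.

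By its title, the study is about liver cancer prevention by metformin, a drug that lowers blood glucose, and about cells that express p21. All mice were C57BL/6, and the genotypes were wild type and Ncoa5+/-, heterozygous for a gene whose product binds nuclear receptors. At 20 weeks no mouse had been treated, and 4 livers of each genotype were sequenced. At 39 weeks the untreated livers numbered 4 (wild type) and 5 (Ncoa5+/-), and the metformin livers 3 (wild type) and 5 (Ncoa5+/-). Treated mice drank water dosed to about 250 mg/kg of the drug daily, starting at 8 weeks of age and lasting 31 weeks. Replicate numbers follow the order of deposition and pair nothing. RNA came from whole frozen liver, and the labels used here say nothing on whether blood was flushed out. In such bulk tissue, fewer red cells and less message per red cell cannot be told apart.

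Libraries of the cohorts were prepared at different facilities and run on different instruments (HiSeq2500 at 20 weeks, HiSeq4000 at 39 weeks), so age, facility and instrument cannot be told apart and no test crosses the cohorts. The FPKM of a library summed to between 695645 and 1613503 at 20 weeks and between 857291 and 2089981 at 39 weeks. Depth in reads is unknown, but the steps between low values put the deepest 39-week library at 1.54 times the shallowest, and, less cleanly, the deepest 20-week library at 1.7 times. The top 50 loci made up over 70% of summed FPKM in 3 libraries: wild type replicate 4 at 20 weeks, untreated Ncoa5+/- replicate 3 at 39 weeks and metformin-treated Ncoa5+/- replicate 5. Ncoa5 did not separate the genotype labels: its lowest and highest values were 3.11 and 5.30 FPKM in wild type against 2.90 and 5.03 FPKM in mice labelled Ncoa5+/- at 20 weeks, and 3.60 and 4.68 against 2.63 and 4.42 FPKM in untreated mice at 39 weeks. The smallest adjusted p over 6 comparisons was 0.476 (two-sided exact permutation tests of log2 values), and the labels do not say which part of the gene was changed. Genotypes are therefore given as labels throughout.

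The alpha and beta globin genes lie in separate clusters, and the members of a pair are near-copies. On GRCm38, the build of the files, Hba-a1 was listed at chr11:32283511-32284465 and Hba-a2 at chr11:32296489-32297298, both on the plus strand. Hbb-bs was listed at chr7:103826534-103828096 in the 39-week file and Hbb-bt at chr7:103812524-103813996, both on the minus strand. In the GENCODE vM21 transcripts, the coding sequences of Hba-a1 and Hba-a2 differed at 1 of 429 bases and those of Hbb-bs and Hbb-bt at 1 of 444 bases. Of all 100-base stretches, 74.5% of the Hba-a2 transcript also lay in Hba-a1 and 54.8% of the Hbb-bt transcript also lay in Hbb-bs, while Hba-a1 and Hbb-bs shared none. How the authors' estimate divides reads between such copies is not given in the sources used here, so the split within a pair is uncertain. The sum of each pair is the firmer value, unless shared reads were dropped.

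The promoters of the 5 genes are shown as description. No link between them and the variation of the globin genes between livers was tested. Each line gives the 110 bases before the RefSeq start site (GRCm38.p6), 5′ to 3′ on the strand of the gene, with capitals at every match, on either strand, to 4 short motifs. The first is CACCC, bound by Klf1 and related factors. The second is CCAAT, a common promoter element. The third is TATAA, the core of the TATA box. The last is AGATAA, which holds the core bound by GATA factors. Matches on the other strand read GGGTG for the first motif, ATTGG for the second and TTATCT for the last, and the third had none. Adjoining matches run together in the Hbb-bt and Alas2 lines.
Hba-a1, chr11:32283562-32283671, plus strand: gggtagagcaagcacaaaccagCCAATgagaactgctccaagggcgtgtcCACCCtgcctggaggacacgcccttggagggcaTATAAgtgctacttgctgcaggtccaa
Hba-a2, chr11:32296382-32296491, plus strand: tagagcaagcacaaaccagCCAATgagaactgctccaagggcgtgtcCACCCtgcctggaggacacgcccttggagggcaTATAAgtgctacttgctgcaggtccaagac
Hbb-bs, chr7:103827929-103828038, minus strand: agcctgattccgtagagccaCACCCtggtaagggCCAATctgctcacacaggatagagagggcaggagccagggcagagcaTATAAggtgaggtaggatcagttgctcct
Hbb-bt, chr7:103813924-103814033, minus strand: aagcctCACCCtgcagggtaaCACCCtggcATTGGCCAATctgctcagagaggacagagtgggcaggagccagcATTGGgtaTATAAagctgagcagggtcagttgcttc
Alas2, chrX:150547307-150547416, plus strand: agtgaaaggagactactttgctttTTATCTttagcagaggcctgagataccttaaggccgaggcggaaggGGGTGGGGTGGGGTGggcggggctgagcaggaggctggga
Each of the 4 globin stretches held the first 3 motifs, with the TATA letters starting between 27 and 30 bases before the start site. The Alas2 stretch held 3 matches to CACCC and a single match to the GATA motif, all on the other strand. Of all 32851 RefSeq stretches of this length, 29.6% held the first motif, 20.2% the second, 10.9% the third and 3.99% the last. The 250 bases before the start were 97.6% identical between Hba-a1 and Hba-a2 and 69.3% identical between Hbb-bs and Hbb-bt. These are matches of letters, not measured sites. The Hba-a1 and Hbb-bs stretches lay inside the gene positions listed above. The Alas2 matches to CACCC lay inside the GENCODE vM21 span of Alas2. For these genes the RefSeq start site thus lay downstream of the start in the other annotation.

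Globin message was a small part of every library. The 4 globin genes together took between 0.00963% and 0.0299% of the summed FPKM at 20 weeks, and between 0.0287% and 0.118% at 39 weeks. Loci listed at 0 add nothing to these sums. Alb (albumin) and Serpina1a (an antitrypsin gene) were at 0 in all 25 libraries, and Apoa1 and Cyp3a11 in all 8 at 20 weeks. Ttr (transthyretin) and Ahsg (fetuin A) were at 0 in 20-week wild type, against means of 7371 and 6268 FPKM in mice labelled Ncoa5+/-. At 39 weeks Apoa1 and Ttr were at 0 in all mice labelled Ncoa5+/-, against means of 8355 and 6588 FPKM in untreated wild type. Ahsg was at 0 there only in untreated mice labelled Ncoa5+/-. The summed level of the 4 globin genes was 211 ± 40.9 FPKM (SD, n = 8) at 20 weeks and 539 ± 156 FPKM (SD, n = 17) at 39 weeks. Hbb-bs was the highest of the 4 in each cohort mean, at 133 ± 21.4 FPKM at 20 weeks and 240 ± 77.6 FPKM at 39 weeks. At 39 weeks Hba-a1 followed with a mean of 154 FPKM, Hba-a2 with 112 FPKM and Hbb-bt with 32.9 FPKM. At 20 weeks the order below Hbb-bs was Hba-a1 with 30.8 FPKM, Hbb-bt with 24.9 FPKM and Hba-a2 with 21.8 FPKM, and the spreads of these 3 overlapped.

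**Figure D1:**
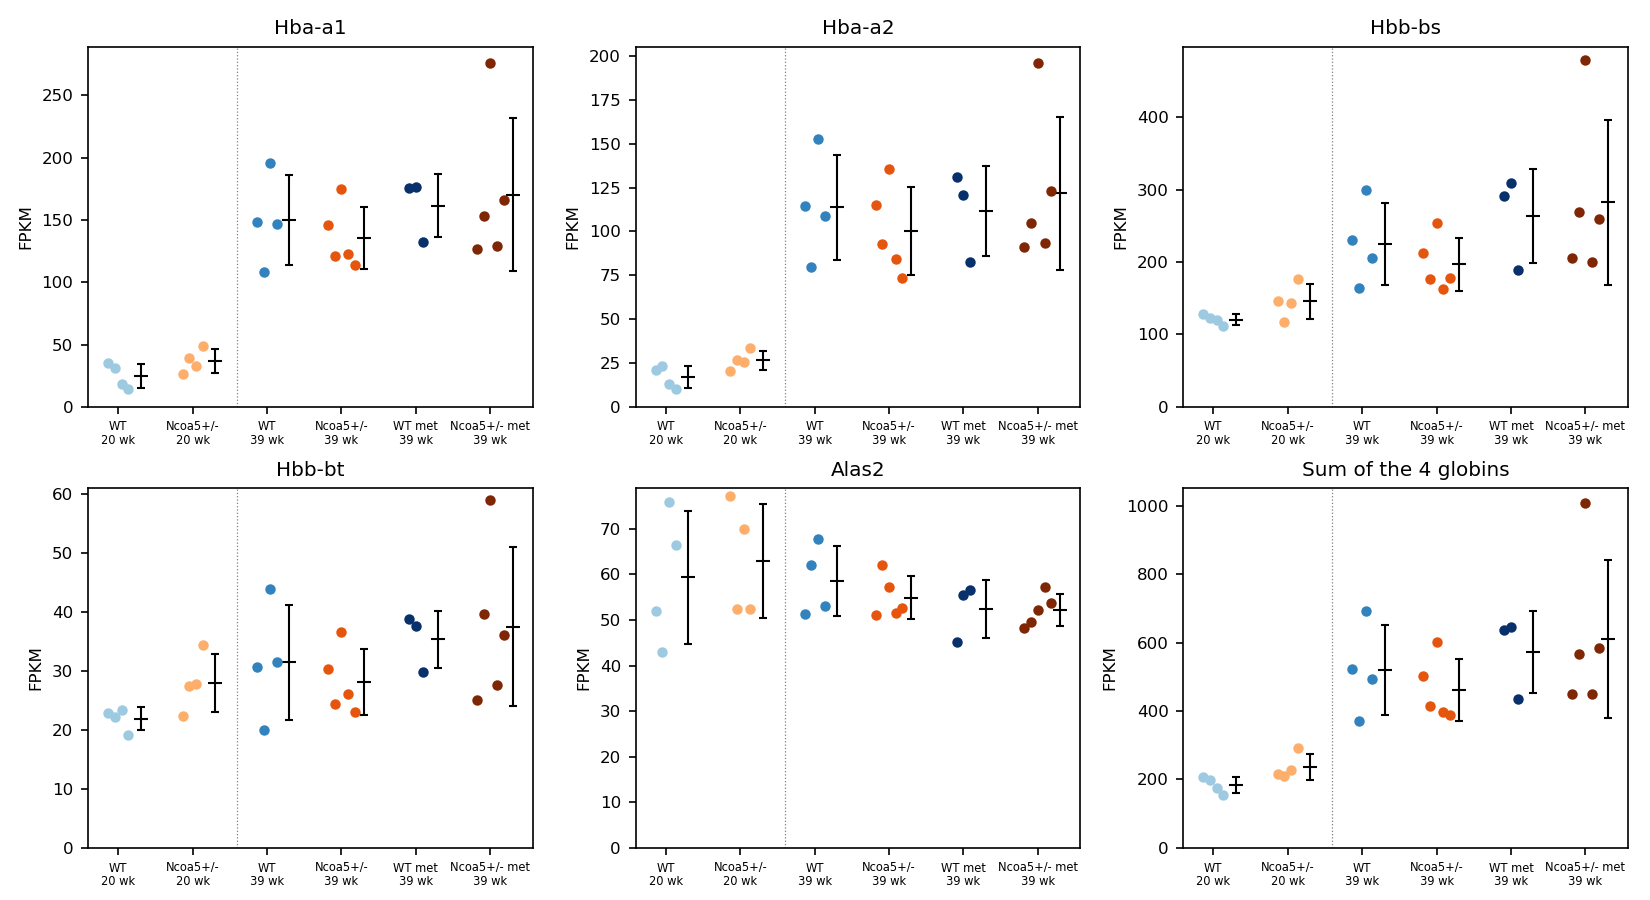
FPKM of Hba-a1, Hba-a2, Hbb-bs, Hbb-bt, Alas2 and the sum of the 4 globins in each of 25 liver libraries; each dot is a mouse, the black mark is the group mean with its SD, "met" is metformin, and the dotted line parts the separately normalized cohorts. Metformin-treated Ncoa5+/- replicate 3 stands above all other 39-week libraries in each globin panel (1009 FPKM in the sum), and the Alas2 panel shows no such library.

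At 20 weeks all 4 globin genes had higher means in mice labelled Ncoa5+/-, and no single member passed the test. The summed globin level was 207, 199, 175 and 155 FPKM in wild type replicates 1 to 4. In mice labelled Ncoa5+/- it was 216, 211, 229 and 293 FPKM. Every library labelled Ncoa5+/- lay above every wild type library, by a narrow margin between 207 and 211 FPKM. The ratio of geometric means was 1.28, the log2 difference 0.36 ± 0.14 (SE, n = 4 and 4), and the two-sided exact permutation p was 0.0286, the smallest that 4 against 4 allows. Adjusted over the 6 comparisons of groups, p was 0.171. As a share of the library's FPKM sum the groups overlapped, and the adjusted p was 0.72. Without both wild type libraries 3 and 4, the lowest pair, the log2 difference was 0.21.

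The relative difference was wider for the alpha genes than for the beta genes. Hba-a2 was 21.0, 23.5, 13.3 and 10.4 FPKM in the wild type livers and 20.4, 26.7, 25.7 and 33.5 FPKM in those labelled Ncoa5+/-. The lowest values were those of wild type replicates 3 and 4, and the groups overlapped. Its log2 difference was 0.66 ± 0.26 (SE), with an unadjusted p of 0.0326 and an adjusted p of 0.603 in limma. Hba-a1 was 34.9, 31.2, 18.2 and 14.7 FPKM in wild type and 26.02, 39.4, 32.5 and 49.1 FPKM in mice labelled Ncoa5+/-, again with wild type replicates 3 and 4 lowest. Its log2 difference was 0.60 ± 0.30 (adjusted p = 0.603). Without those 2 libraries the estimate was 0.12.

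The beta genes had smaller log2 differences between these groups. Hbb-bs was 129, 122, 120 and 111 FPKM in wild type and 147, 117, 143 and 176 FPKM in mice labelled Ncoa5+/-, a log2 difference of 0.26 ± 0.15 (limma adjusted p = 0.603). Of the latter 4 values, 3 lay above the wild type range and 1 lay inside it. Hbb-bt had a log2 difference of 0.33 ± 0.14 (limma adjusted p = 0.603), with means of 28.0 and 21.9 FPKM. In this comparison limma called 0 of 5 members at an adjusted p under 0.05, and it called 0% of the loci tested. At an unadjusted p under 0.05, 1 of 5 members (Hba-a2) and 7.48% of all loci passed. No member had groups that did not overlap, while 2.96% of all loci were higher and 1.06% lower without overlap.

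Marker lists of other cells are set beside the 20-week globin values, with 0 genes called, where limma called 0% of all loci. Their part in those values was not tested. Of the Kupffer cell list (liver macrophages, which clear old red cells), 11 of 12 genes were tested, all 11 had negative log2 differences (median -0.65), 5 had an unadjusted p under 0.05, and 0 were called by limma. Over all loci the median was 0.03, and 54.4% were positive. The Kupffer genes' summed level ranged from 69.8 to 178 FPKM in wild type and from 58.8 to 101 FPKM in mice labelled Ncoa5+/-. Clec4f, a Kupffer cell lectin, averaged 22.2 against 15.0 FPKM. The neutrophil list summed to between 4.09 and 5.32 FPKM in wild type and to between 3.43 and 106 FPKM in mice labelled Ncoa5+/-. A single library of the latter held 86.4 FPKM of Lcn2, a gene of that list. S100a9 and S100a8 reached no more than 9.17 and 7.5 FPKM in any of the 8 libraries. The list's 3 tested genes had positive estimates, and its defining marker Ly6g was at 0 in 7 of 8 libraries. The lymphocyte list summed to between 17.8 and 27.8 FPKM in wild type and to between 6.89 and 17.97 FPKM in mice labelled Ncoa5+/-. Its only tested gene, Ighm, was lower without overlap in the latter (means 8.16 and 20.04 FPKM, unadjusted p = 0.00271, limma adjusted p = 0.603), as were 1.06% of all loci. Of 12 endothelial genes 10 had negative estimates (median -0.21), and 2 had an unadjusted p under 0.05. Hp (haptoglobin, which binds free haemoglobin) averaged 1849 ± 258 FPKM in wild type and 4239 ± 3078 FPKM in mice labelled Ncoa5+/- (limma adjusted p = 0.603). Its highest value over the 8 libraries was 8578 FPKM. Of the 8 genes listed for heme and haemoglobin clearance, Hp among them, 5 had positive and 3 negative estimates (median 0.09, 0 called).

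At 39 weeks the untreated genotypes overlapped throughout. The globin sum was 524, 372, 692 and 493 FPKM in wild type replicates 1 to 4, and 503, 414, 601, 396 and 388 FPKM in replicates 1 to 5 labelled Ncoa5+/-. All 5 of the latter lay inside the wild type range. The log2 difference was -0.16 ± 0.22 (SE, two-sided exact permutation p = 0.468, adjusted p = 0.72), and ran from -0.31 to -0.01 over the fits that left out a single library. All 5 members had negative limma estimates, from -0.09 for Alas2 to -0.18 for Hba-a2, and the smallest adjusted p was 0.931. Limma called 0 of 5 members in this comparison, against 0.262% of all loci, and 0 of 5 had an unadjusted p under 0.05, against 5.62%. Groups without overlap numbered 0 of 5 members, against 1.09% of loci higher and 0.717% lower. The Kupffer list was negative in 11 of 11 tested genes (median -0.34, 0 called), where 44.5% of all loci were positive (median -0.02). Its summed level overlapped, from 244 to 610 FPKM in wild type (median 300) and from 155 to 419 FPKM in mice labelled Ncoa5+/- (median 287). Of 12 endothelial genes 11 had negative estimates here too (median -0.16, 0 called). The part of these lists in the globin values was not tested. The signs of the globin estimates were opposite to those at 20 weeks for each globin gene. No estimate passed in either cohort, and the difference between cohorts was not tested.

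Metformin-treated mice labelled Ncoa5+/- had a globin mean of 612 ± 231 FPKM (SD, n = 5), and a single liver carried much of its distance from the untreated mice of the same label. Their globin sum was 449, 567, 1009, 450 and 584 FPKM in replicates 1 to 5. Replicate 3 exceeded every other 39-week library, and the other 4 lay between 449 and 584 FPKM, inside the range of the untreated group. Against untreated mice of the same label, the log2 difference was 0.36 ± 0.24 (SE, n = 5 and 5; p = 0.167 in the exact permutation test, adjusted p = 0.5). Without replicate 3 it was 0.16.

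Hbb-bs gave the widest gap in this comparison. It was 205, 269, 478, 200 and 259 FPKM in the treated mice and 212, 176, 254, 163 and 178 FPKM in the untreated mice labelled Ncoa5+/-. Treated replicates 1 and 4 lay inside the untreated range, 2 and 5 just above it and 3 far above it. The limma log2 difference was 0.46 ± 0.23 (SE, adjusted p = 0.570), and 0.25 without replicate 3. The authors' deposited table gives the same groups as 293 against 201 FPKM, a log2 fold change of 0.55, p = 0.0001 and q = 0.0117, and marks Hbb-bs as significant together with 1.22% of the loci it tested. In the authors' deposited table the other members were not marked: Hbb-bt had q = 0.13, Hba-a1 q = 0.357, Hba-a2 q = 0.593 and Alas2 q = 0.9997.

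The other globin members had the same direction under metformin in mice labelled Ncoa5+/-. Limma estimates were 0.36 ± 0.22 for Hbb-bt, 0.28 ± 0.20 for Hba-a1 and 0.25 ± 0.23 for Hba-a2, with adjusted p between 0.667 and 0.773. Limma called 0 of 5 members and 0% of all loci here. At an unadjusted p under 0.05 it passed 0 of 5 members and 8.83% of loci. No member had groups without overlap, against 0.804% of loci higher and 0.769% lower. Hba-a1 was 127, 153, 276, 129 and 166 FPKM in the treated mice and 146, 121, 175, 123 and 114 FPKM in the untreated mice, so the groups overlapped. Of 11 Kupffer genes 10 had positive estimates here (median 0.27, 0 called), against 50% of all loci (median 0). So had 10 of 12 endothelial genes (median 0.16, 0 called). For metformin in wild type, 6 of 11 Kupffer genes were positive (median 0.03), against 47.4% of all loci. Between treated genotypes 2 of 11 Kupffer genes were positive (median -0.04), against 47.7% of all loci. The part of these lists in the globin values was not tested.

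In wild type mice the globin values with and without metformin overlapped. The globin sum was 637, 644.1 and 434 FPKM in the 3 treated wild type mice, all inside the untreated wild type range of 372 to 692 FPKM. The log2 difference was 0.15 ± 0.26 (SE, n = 3 and 4; p = 0.6 in the exact permutation test, adjusted p = 0.72). Limma called 0 of 5 members and 0% of all loci, and 0 of 5 members against 9.35% of loci had an unadjusted p under 0.05. No member was without overlap, against 4.37% of loci higher and 3.96% lower. Among treated mice, those labelled Ncoa5+/- differed from wild type by 0.05 ± 0.28 in the log2 globin sum (exact permutation p = 0.911, adjusted p = 0.911), with 0 of 5 members called against 0.157% of loci and 0 of 5 against 4.35% at an unadjusted p under 0.05. No member was without overlap, against 2% of loci higher and 1.72% lower. Set against untreated wild type, treated mice labelled Ncoa5+/- gave 0.20 ± 0.28 (exact permutation p = 0.548, adjusted p = 0.72; from 0.0018 to 0.35 without single libraries), with 0 of 5 called against 0.262% of loci and 0 of 5 against 12.1% unadjusted. No member was without overlap, against 2.3% of loci higher and 2.19% lower. The comparisons at 39 weeks share groups and are not independent of each other.

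Whether metformin acted differently on the members in the 2 genotypes was tested as an interaction in limma. Estimates ran from 0.08 ± 0.14 for Alas2 to 0.27 ± 0.36 for Hba-a2. All 5 adjusted p were 0.991, with 0 of 5 members and 0% of loci called, and 0 of 5 members against 2.79% of loci at an unadjusted p under 0.05. The standard errors of the globin estimates, from 0.32 to 0.36, were larger than the estimates.

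**Figure D2:**
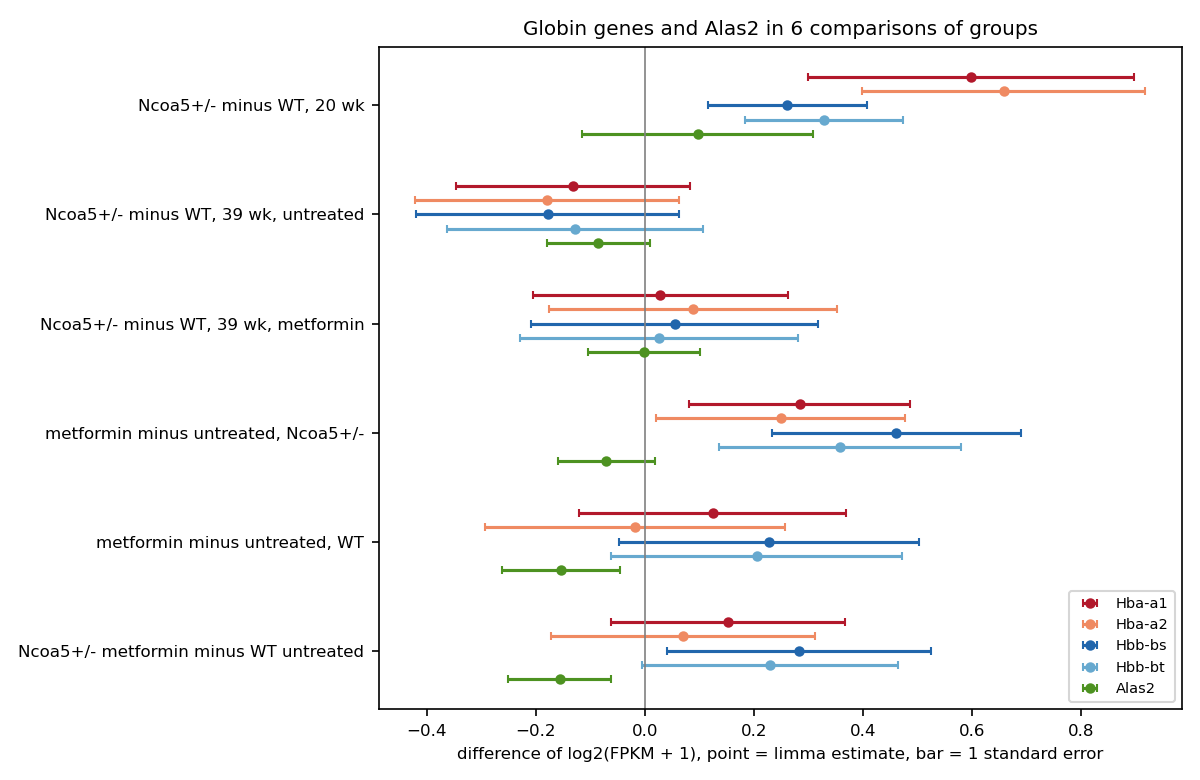
Differences of log2(FPKM + 1) for the 5 members in 6 comparisons of groups; points are limma estimates, bars are 1 standard error and the grey line is no difference. The 4 globin genes lie between 0.26 and 0.66 at 20 weeks and between 0.25 and 0.46 for metformin in Ncoa5+/- labels, while Alas2 stays between -0.16 and 0.10.

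Alpha and beta globin levels varied together between livers of the 39-week cohort. Across its 17 libraries, the log2 alpha sum followed the log2 beta sum with Pearson r = 0.959 and Spearman rho = 0.929 (permutation p = 1e-05 for each, the smallest that 100000 resamples can give; adjusted p = 8e-05 over 8 relations). With group means subtracted r was 0.974, and without the 2 libraries farthest from the median alpha sum it was 0.928. Across the 8 libraries at 20 weeks, r was 0.713 (exact permutation p = 0.0484, adjusted p = 0.129) and rho 0.762 (exact p = 0.0368, adjusted p = 0.098). Without wild type replicates 3 and 4, which were also the 2 farthest from the median, r was 0.541, and with group means subtracted it was 0.504. Within pairs, Hba-a1 and Hba-a2 had r = 0.974 at 20 weeks and 0.968 at 39 weeks, and these near-copies share reads. Hbb-bs and Hbb-bt had r = 0.740 and 0.949. The pair with no shared stretch, Hba-a1 and Hbb-bs, had r = 0.626 at 20 weeks and 0.969 at 39 weeks.

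The balance between alpha and beta differed widely between the cohorts. The alpha sum over the beta sum was 0.369, 0.379, 0.220 and 0.194 in wild type and 0.275, 0.458, 0.341 and 0.392 in mice labelled Ncoa5+/- at 20 weeks. The beta sum exceeded the alpha sum in all 8 of these livers, most in wild type replicates 3 and 4. The part in this ratio of reads shared between near-copies was not tested. At 39 weeks the ratio lay between 0.835 and 1.09 in all 17 libraries. The beta sum averaged 158 FPKM at 20 weeks and 273 FPKM at 39 weeks, and the alpha sum 52.6 and 265 FPKM, so the alpha genes carried more of the gap between cohorts. The cohorts were normalized apart, and age, facility and instrument cannot be told apart here.

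Within the 39-week cohort the ratio had a lower mean in metformin-treated livers of both labels, a comparison made after its values were seen. It was 1.01, 1.02, 1.01 and 1.08 in untreated wild type mice and 0.929, 0.857 and 0.980 in treated wild type mice. The 3 treated values lay below all 4 untreated values. In mice labelled Ncoa5+/- it was 1.08, 1.06, 1.07, 1.09 and 0.932 untreated and 0.946, 0.835, 0.878, 0.980 and 0.979 treated. Here untreated replicate 5 lay among the treated values and the other 4 lay above them. The log2 difference of the ratio was -0.16 ± 0.06 in wild type (SE, two-sided exact permutation p = 0.0286, the smallest that 3 against 4 allows) and -0.18 ± 0.06 in mice labelled Ncoa5+/- (exact permutation p = 0.0317). Adjusted over the 6 comparisons of groups, p was 0.0635 for each, so neither passed. When single libraries were left out, the adjusted p ran from 0.0476 to 0.143 in mice labelled Ncoa5+/-. In wild type it ran from 0.133 to 0.2. The value of 0.0476 came without untreated replicate 5, the untreated library among the treated values, whose removal leaves groups without overlap. Untreated wild type against treated Ncoa5+/- labels, a comparison that shares groups with the former, gave -0.16 ± 0.05 for treated minus untreated (exact permutation p = 0.0238, adjusted p = 0.0635). With Hba-a1 over Hbb-bs, the pair with no shared stretch, the differences were -0.10 in wild type (adjusted p = 0.429) and -0.18 in mice labelled Ncoa5+/- (adjusted p = 0.143). The genotype comparisons of the ratio at 39 weeks had adjusted p of 0.886 untreated and 0.982 treated. At 20 weeks the genotype difference of the ratio was 0.37 ± 0.30 (exact permutation p = 0.257, adjusted p = 0.386), and -0.05 without wild type replicates 3 and 4.

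**Figure D3:**
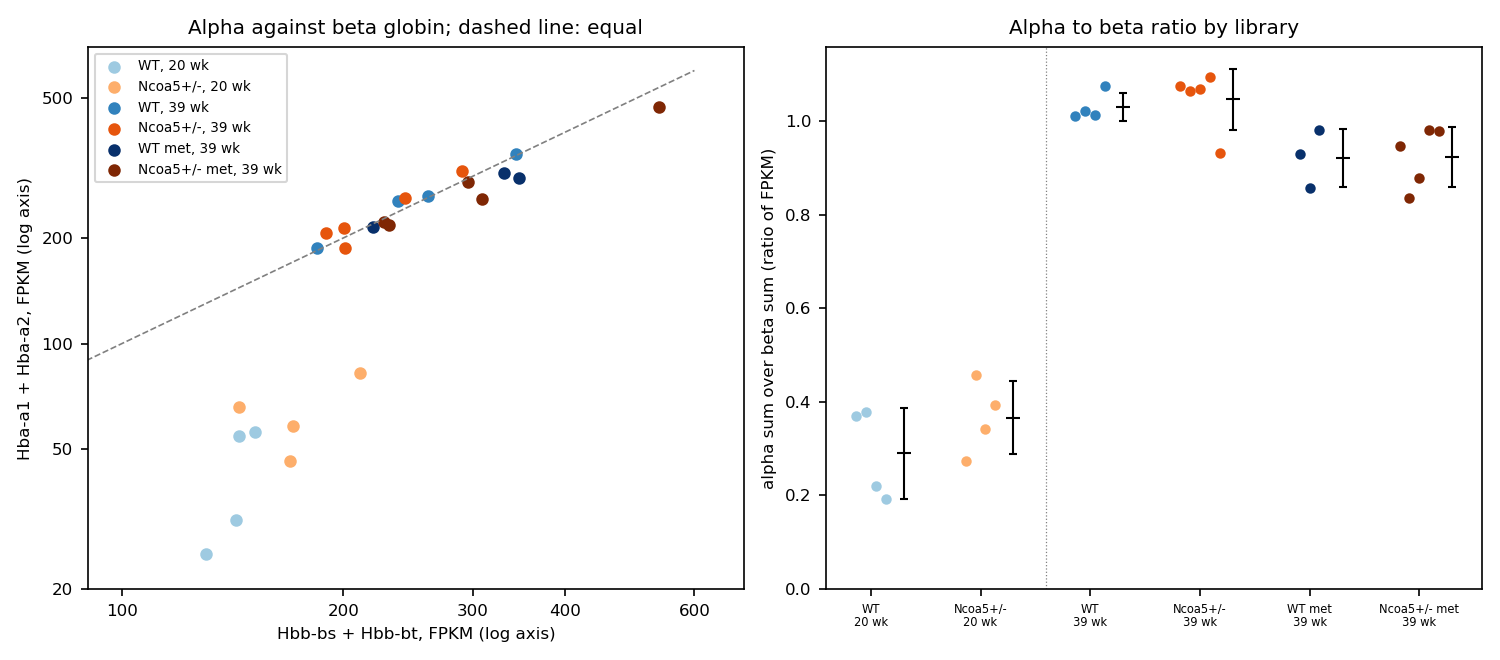
Left, summed FPKM of Hba-a1 and Hba-a2 against that of Hbb-bs and Hbb-bt in each library on log axes, with the dashed line at equal values; right, the ratio of the 2 sums by group, with dots for mice and marks for mean and SD. The 17 libraries at 39 weeks lie along the line with ratios from 0.835 to 1.09, and the 8 at 20 weeks lie below it, from 0.194 to 0.458.

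Alas2 averaged 61.2 ± 12.8 FPKM (SD, n = 8) at 20 weeks, with a lowest value of 43.1 and a highest of 77.3, and 54.5 ± 5.62 FPKM (SD, n = 17) at 39 weeks, with a lowest of 45.1 and a highest of 67.7. Its coefficient of variation at 39 weeks was 10.3%, against 28.9% for the globin sum. At 20 weeks it was 20.9%, against 19.4% for the globin sum. At 20 weeks Alas2 was 52.1, 43.1, 75.8 and 66.5 FPKM in wild type and 77.3, 52.4, 69.9 and 52.5 FPKM in mice labelled Ncoa5+/-. Wild type replicates 3 and 4, the lowest in globin, were the highest of their group in Alas2, and the genotypes overlapped (log2 difference 0.10 ± 0.21, limma adjusted p = 0.862). In untreated wild type mice at 39 weeks Alas2 was 51.4, 62.0, 67.7 and 53.0 FPKM, and in untreated mice labelled Ncoa5+/- 51.0, 62.1, 57.3, 51.5 and 52.7 FPKM. In treated wild type mice it was 45.1, 55.6 and 56.7 FPKM, and in treated mice labelled Ncoa5+/- 48.2, 49.5, 52.2, 57.2 and 53.8 FPKM. Treated replicate 3 labelled Ncoa5+/-, the library highest in globin, held 52.2 FPKM of Alas2, the median of its group. Limma estimates for Alas2 lay between -0.16 and 0.10 over the 6 comparisons of groups, with adjusted p from 0.536 to 1.

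The relation of Alas2 to the globin sum did not pass the permutation test in either cohort. At 39 weeks Pearson r was -0.105 (permutation p = 0.689, adjusted p = 0.835) and Spearman rho -0.0931 (permutation p = 0.724, adjusted p = 0.882). At 20 weeks r was -0.286 (exact permutation p = 0.505, adjusted p = 0.809) and rho 0.119 (exact permutation p = 0.793, adjusted p = 0.882). Without the 2 libraries farthest from the median globin sum, r was -0.404 at 39 weeks and -0.0342 at 20 weeks. With group means subtracted, r was 0.00628 at 39 weeks and -0.589 at 20 weeks. By the same measure at 20 weeks, Alas2 had r = -0.857 with Hba-a1, -0.849 with Hba-a2, -0.484 with Hbb-bt and -0.113 with Hbb-bs, described here over 8 libraries with no test.

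**Figure D4:**
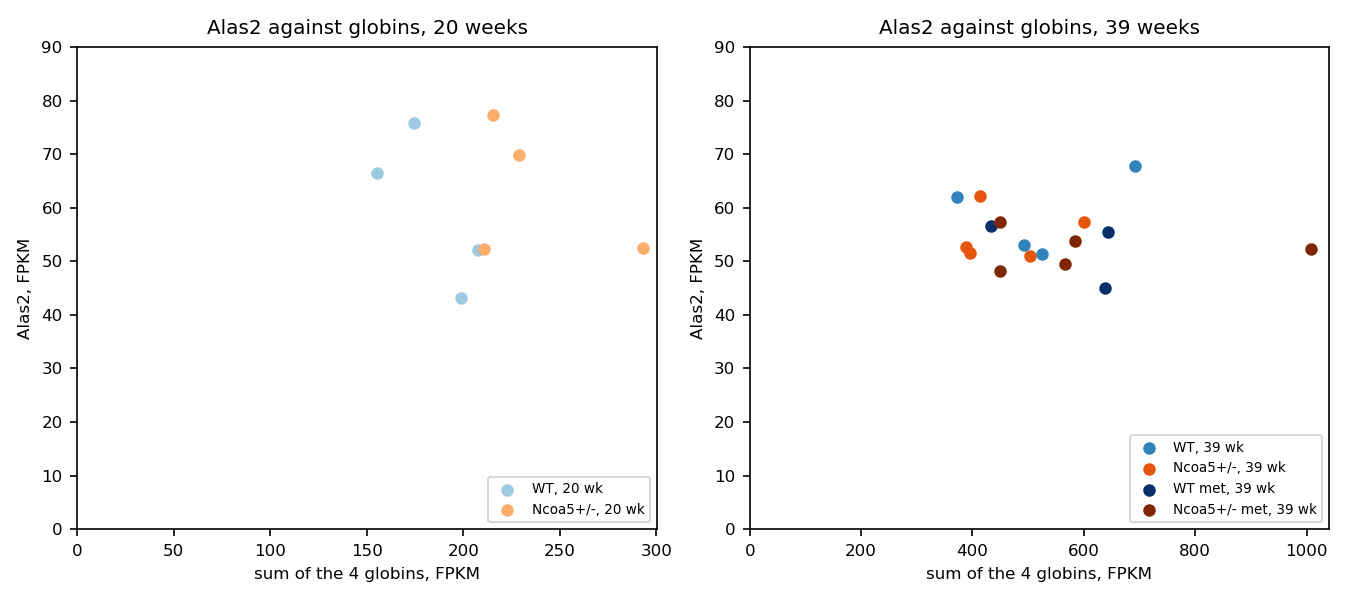
Alas2 against the sum of the 4 globin genes, both in FPKM, with a dot for each mouse and the cohorts in separate panels. Alas2 stays between 43.1 and 77.3 FPKM at 20 weeks and between 45.1 and 67.7 FPKM at 39 weeks at every globin level, including the library at 1009 FPKM of globin.

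The position given for Alas2 bears on its values. The files list it at chrX:150519519-150643878, a span of 124360 bases also written for its neighbours Apex2 (a DNA repair endonuclease gene), Pfkfb1 (a liver glycolysis regulator gene) and Mir3620. In GENCODE vM21, Alas2 lies on the plus strand at chrX:150547375-150570638, and Apex2, on the minus strand, shares 311 of the 2403 exon bases of Alas2 (12.9%). Pfkfb1 shares none. The strandedness of the libraries is not given in the sources used here, so reads from the shared bases cannot be told apart. Apex2 averaged 4.25 FPKM at 20 weeks and 4.12 FPKM at 39 weeks, far below Alas2. Across the 17 libraries at 39 weeks Alas2 and Apex2 had r = 0.592 (permutation p = 0.0119, adjusted p = 0.0477) and rho = 0.593 (permutation p = 0.0139, adjusted p = 0.0556), with r = 0.530 without the 2 libraries farthest from the median. At 20 weeks r was -0.115 (exact permutation p = 0.770, adjusted p = 0.835). Alas2 and Pfkfb1 had r = -0.0553 at 39 weeks (permutation p = 0.835, adjusted p = 0.835) and -0.400 at 20 weeks (exact permutation p = 0.33, adjusted p = 0.66).

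Other red cell genes were checked to see what kind of erythroid message the libraries held. The embryonic globins Hba-x, Hbb-y, Hbb-bh1 and Hbb-bh2 were listed at 0 in all 25 libraries. Of 14 red cell membrane genes, 12 were found in each cohort and only Gypc (glycophorin C, made in many tissues) reached a mean of 1 FPKM. Sptb, red cell beta spectrin, averaged 0.146 FPKM at 39 weeks. Slc4a1, the anion exchanger of the red cell membrane, averaged 0.0855 FPKM at 20 weeks and 0.127 FPKM at 39 weeks. Gata1, the erythroid transcription factor, was at 0 in 6 of 8 and 11 of 17 libraries, while Klf1, which acts at globin CACCC boxes, averaged 1.16 and 3.02 FPKM. Klf1 was lower without overlap in treated than in untreated 39-week mice labelled Ncoa5+/- (means 2.18 and 3.64 FPKM, unadjusted p = 0.00537, limma adjusted p = 0.410), as were 0.769% of all loci. Slc4a1 and Gata1, markers that define the red cell lineage, were thus listed at or near 0 beside 61.2 and 54.5 FPKM of Alas2. Slc4a1 was above 0 in every library, with highest values of 0.439 FPKM at 20 weeks and 0.437 FPKM at 39 weeks. Gata1 reached at most 0.0251 and 0.0226 FPKM. A listed 0 can be a failed estimate in these files, where Alb is at 0 too. Ldb1 and Lmo2, partners of GATA factors that are made in many cells, averaged 19.5 and 3.67 FPKM at 39 weeks. Car1, a red cell carbonic anhydrase also known from other tissues, averaged 23.0 FPKM at 20 weeks and 5.25 FPKM at 39 weeks.

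None of these further lists had a gene that passed limma in any of the 7 comparisons. Limma called no more than 0.262% of all loci in any of them, so 0 calls says little about these lists. In the red cell maturation list (transporters, ubiquitin and antioxidant genes of late red cells), 14 of 22 could be tested in the younger cohort and 16 in the older. Its 3 highest genes at 39 weeks were Prdx2, a peroxiredoxin abundant in red cells, at 196 FPKM, Fech, the enzyme that inserts iron into heme, at 64.2 FPKM, and Ube2l6, a ubiquitin-like conjugating enzyme gene, at 38.2 FPKM. Their limma adjusted p ranged from 0.703 to 0.875 at 20 weeks. Tfrc, the transferrin receptor, was higher in every 20-week liver labelled Ncoa5+/- than in every wild type liver (means 7.46 and 4.89 FPKM), with a limma adjusted p of 0.603, and 2.96% of all loci were also higher without overlap. Of the maturation list, 11 of the 14 tested had positive estimates at 20 weeks (median 0.14), and 5 of 16 in untreated 39-week mice (median -0.04, against -0.017 over all loci, of which 44.5% were positive). All 8 heme synthesis genes besides Alas2 were tested. Alas1, at 461 and 402 FPKM, was the highest of them, and Alad, at 101 and 136 FPKM, and Urod, at 104 and 76.9 FPKM, came next. Their median log2 difference was 0.036 at 20 weeks and -0.0042 in untreated 39-week mice. Of 8 genes for heme and haemoglobin clearance, Hpx (hemopexin), Hp and Blvrb (biliverdin reductase B) were the highest, at 2338, 1969 and 250 FPKM at 39 weeks.

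Markers of other blood cells were mostly low. Platelet genes summed to between 8.49 and 14.1 FPKM at 20 weeks and to between 12.7 and 19.2 FPKM at 39 weeks. Clec1b, which liver endothelium also makes, was the highest of them at 9.24 FPKM at 39 weeks. Itga2b, the platelet integrin alpha IIb, averaged 2.27 and 2.34 FPKM, and Pf4, platelet factor 4, 1.09 and 1.71 FPKM. With group means subtracted, 3 of the list genes compared, besides the members, had r over 0.5 with the log2 globin sum in both cohorts. They were Stab1 of sinusoidal endothelium (r = 0.879 at 20 weeks and 0.530 at 39 weeks), Asgr1 of hepatocytes (0.546 and 0.563) and Itga2b (0.697 and 0.501). Others of the same lists had lower r: Eng -0.601 and -0.0567, Fgb 0.11 and -0.318, and Pf4 0.322 and -0.466. These single genes therefore do not stand for their cell types. Of 9861 loci present in both cohorts, 69 exceeded 0.5 in both. These correlations are descriptions over 8 and 17 libraries that share depth and scaling. At 39 weeks the highest neutrophil genes were Lcn2, S100a8 and S100a9, at 5.11, 4.70 and 4.19 FPKM. Ighm, the immunoglobulin M heavy chain, averaged 42.9 FPKM, with single libraries from 8.73 to 266 FPKM. The next lymphocyte genes, Cd79a and Cd79b, averaged 1.42 and 1.30 FPKM. At 39 weeks Cyp3a11, Fgb and Apob of hepatocytes averaged 1608, 903 and 889.8 FPKM, Clec4g, Fcgr2b and Eng of sinusoidal endothelium 60.1, 34.0 and 22.4 FPKM, and C1qa, Clec4f and C1qc of Kupffer cells 58.4, 56.3 and 53.4 FPKM. Other hepatocyte genes were listed at 0: Alb and Serpina1a in all 25 libraries, and Apoa1 and Cyp3a11 in all 8 at 20 weeks. Ttr and Ahsg were at 0 in 20-week wild type. At 39 weeks Apoa1 and Ttr were at 0 in all mice labelled Ncoa5+/-, and Ahsg in the untreated ones. Of the other globins, Cygb, Ngb and Mb averaged 5.09, 0.141 and 0.0271 FPKM.

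The loci whose pattern was most like the globin sum were picked by the smaller of the 2 cohorts' r with group means subtracted, over 9861 loci present in both cohorts. Besides the members, no locus reached 0.7 in both cohorts, and 69 exceeded 0.5 in both. The 10 highest were the locus naming Bre and Mrpl33, Rwdd1, Ostf1, Eml5, Oaz1-ps, Gm13008, Slc15a2, Ephx2, Uchl3 and 1810021B22Rik, with r between 0.615 and 0.782 in the younger cohort and between 0.616 and 0.748 in the older. By the same measure the globin members themselves had r between 0.789 and 0.845, and between 0.963 and 0.994, as parts of the sum, and Alas2 had -0.589 and 0.00628. The 5 loci most opposite to the sum were Xpnpep1, Rnft1, Scrn3, Dpy19l3 and Utrn, with r between -0.822 and -0.659 at 20 weeks and between -0.708 and -0.660 at 39 weeks. None of the 15 is on the erythroid lists.

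The calls of the genotype comparisons at 39 weeks were refitted with the log2 globin sum as a term of the model. In untreated mice, limma called 30 loci without the term and 25 with it, of which 24 were shared. In treated mice it called 18 and 14, of which 13 were shared. These counts also moved with the libraries used: without wild type replicate 2 or without replicate 4 the untreated comparison had 18 calls, and without treated wild type replicate 1, 2 or 3 the treated comparison had 11, 4 and 5 calls. Cdkn1a, the gene of p21, had a log2 difference of 3.43 (adjusted p = 0.0017) without and 3.41 (adjusted p = 0.00426) with the globin term in untreated mice, and 3.35 (adjusted p = 0.00886) and 3.36 (adjusted p = 0.0162) in treated mice.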

How the data were processed

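Liver RNA-seq of 25 mice in 6 groups was used. Per the submitters' processing notes, the authors used Trimmomatic 0.33, TopHat2, Cufflinks and Cuffnorm with GRCm38.p5; other versions, scaling method and strandedness are not given in the sources used here. Each library's deposited values are FPKM per locus, normalized within a cohort by the authors. The authors' deposited tables of comparisons list each locus with pooled FPKM values, their log2 ratio, p-value and q-value; the direction was turned so that positive means higher in Ncoa5+/- or treated mice. The deposited attribute tables hold positions. No sample column was left unused.

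Replicates are separate mice, and precision rests on the spread between them. Without read counts there is no counting interval. Left out as failed estimates were loci listed at 0 throughout one group but, throughout another, above 0 and averaging 1 FPKM or more (15 at 20 weeks, 14 at 39 weeks; no member). Each member was fitted among all tested loci with limma 3.58.1 in R 4.3.3 (lmFit, eBayes with trend) on log2(FPKM + 1), with Benjamini-Hochberg adjustment over all loci and a threshold of 0.05; "called" means past it. On this scale low genes' fold changes are understated. At 39 weeks 4 groups shared the spread. Globin sums and ratios were compared on the log2 scale with exact permutation tests, two-sided (scipy 1.17.1, Python 3.11.15), adjusted over 6 comparisons. Correlations used log2(FPKM + 1) with permutation p adjusted over 8 relations. Limma and the permutation test were tested on simulated data.

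Named genes were the members, the 3 highest genes of each list at 39 weeks, any list gene called, and the 10 loci most like and 5 most opposite to the globin sum; Gata1, Car1, Tfrc, Ly6g, Alb, Serpina1a, Apoa1, Ttr, Ahsg, Stab1, Asgr1, Ncoa5, Cdkn1a, Apex2, Pfkfb1 and the embryonic globins were added with their values known. The members and lists were chosen with earlier results of these data known. Alternatives were other pseudocounts (0.1 and 5), filters and scalings, fits of compared groups alone, and leaving out libraries; those leaving out sets of libraries, the alpha to beta ratio and the Apex2 and Pfkfb1 relations were chosen after seeing the data. Promoters came from RefSeq and transcripts and exons from GENCODE vM21, and all 5 members matched by symbol.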

Additional observations from a re-analysis of the deposited data

Results flagged for a closer look

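Values were checked for a library lying far from the rest of its group, in 35 sets of 4 or 5 libraries. Chance sets off this check in about 1 of 20 sets, and the sets overlap, since the globin genes move together. In metformin-treated mice labelled Ncoa5+/-, replicate 3 stood apart at 275.7 FPKM for Hba-a1, 478.3 FPKM for Hbb-bs and 1009 FPKM for the globin sum. The same liver held 52.2 FPKM of Alas2, inside its group's range of 48.2 to 57.2 FPKM. For the alpha to beta ratio, untreated wild type replicate 4 at 39 weeks stood apart at 1.075, above 3 values between 1.01 and 1.02, and untreated replicate 5 labelled Ncoa5+/- stood apart at 0.9321, below 4 values between 1.06 and 1.09. No interaction of genotype and metformin passed the test for any member.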

How the results depend on the processing

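No paired analysis was possible because the labels give no replicate numbers shared between groups. Limma called 0 of 5 members in each of 7 comparisons under every alternative run, with the smallest adjusted p at 0.279. For the globin sum the smallest adjusted p was 0.171, but 4 against 4 or 3 against 4 mice (smallest possible p 0.0286) can hardly pass adjustment, so this says nothing about stability. The precision is limited by 3 to 5 mice a group. Where values changed direction the cause was not tested, and none of those estimates passed in either direction. For the globin sum, the genotype difference in treated mice was -0.0613 as a percent of summed FPKM and ran from -0.146 to 0.149 when single libraries were left out, and metformin in wild type ran from -0.00166 to 0.335. With Alas2 in place of the globin sum, the differences were -0.00182 for genotype in treated mice, -0.0707 and -0.155 for metformin in Ncoa5+/- and wild type labels, and -0.156 for treated Ncoa5+/- against untreated wild type. The alpha to beta ratio between genotypes was -0.0264 in treated mice from Hba-a1 over Hbb-bs, -0.00135 in untreated mice from Hba-a2 over Hbb-bs, -0.0196 in treated mice without the library whose 50 highest loci exceed 70%, and -0.0538 at 20 weeks without wild type replicates 3 and 4. Leaving out single libraries, it ran from -0.0498 to 0.0472 between treated genotypes, and the metformin difference in mice labelled Ncoa5+/- ran from -0.223 to -0.146, past the threshold only without untreated replicate 5. The alpha and beta correlation at 20 weeks fell to 0.504 with group means subtracted and to 0.541 without wild type replicates 3 and 4. That of Alas2 and globins was -0.589 at 20 weeks with group means subtracted, 0.103 there without those replicates and 0.00628 at 39 weeks with group means subtracted. The genotype calls in untreated 39-week mice numbered 30, 11 when only the compared groups were fitted, and 18 to 27 without single libraries. Those in treated mice numbered 18, then 10 with a pseudocount of 5, 6 with the compared groups alone, and 4 to 19 without single libraries, the lowest without wild type replicate 2.

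For single members, Hba-a1 at 20 weeks ranged from 0.12 to 0.79 over all alternatives, lowest without wild type replicates 3 and 4. Leaving out single libraries turned these directions. At 20 weeks Alas2 ran from -0.0442 to 0.223. Between untreated genotypes at 39 weeks Hba-a1 ran from -0.276 to 0.00658 and Hbb-bt from -0.320 to 0.0437. Between treated genotypes Hba-a1 ran from -0.160 to 0.118, Hba-a2 from -0.112 to 0.217, Hbb-bs from -0.167 to 0.186, Hbb-bt from -0.151 to 0.149 and Alas2 from -0.105 to 0.0569 (0.0114 with quantile normalization). For metformin in wild type Hba-a1 ran from -0.0209 to 0.262 and Hba-a2 from -0.176 to 0.182 (0.00422 with a median shift). For treated Ncoa5+/- against untreated wild type Hba-a1 ran from -0.0364 to 0.290 and Hba-a2 from -0.116 to 0.222. For the interaction Hba-a1 ran from -0.0290 to 0.304, Hbb-bt from -0.0231 to 0.345 and Alas2 from -0.0193 to 0.143.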
